A study of Drosophila melanogaster with 24 samples.

Results

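The genes described here are 100 Drosophila protein-coding genes that are still known only by a CG number, the annotation's running identifier, and whose RNA was more abundant in replicates 1 and 2 than in replicates 3 and 4 of control embryos. They were chosen by those control values. Each gene's count was divided by the total of its library and is given as counts per M (CPM), and 2035 of 6005 CG genes had a mean control level of at least 5 CPM. These were ranked by the log2 ratio of the mean CPM of control replicates 1 and 2 to that of control replicates 3 and 4, with 1 CPM added to both means, and the 100 highest were taken out of the 17559 gene identifiers in the table. The control difference is therefore given as a description without a test, and all tests used the 20 libraries of the other 5 genotypes.

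The series compared whole embryos collected 2 to 4 h after egg laying, in 6 genotypes with 4 replicates each, to ask what the histone deacetylase HDAC3 does at this stage and which of its functions are needed. Control flies carried only the maternal driver (tub-GAL4/+). In the HDAC3 shRNA genotype the same driver, active in the mother's germ line, expressed a short hairpin RNA against HDAC3 from a landing site on the third chromosome. The 4 rescue genotypes carried the driver and the shRNA together with an shRNA-resistant HDAC3 transgene, expressed from the gene's own promoter at 1 landing site on the second chromosome and encoding HDAC3 in its wild-type form (WT) or with the Y303F, K26A or HEBI change. The 3 mutants follow mammalian HDAC3 changes that lower its catalysis: Y303F alters the active site, K26A a residue that contacts the activating domain of the corepressor, and HEBI a set of residues needed to bind the corepressor, called SMRTER in the fly. Embryos were pooled before RNA was taken, and according to the study Y303F embryos also hold RNA from the endogenous HDAC3 locus. HDAC3 and CG45100, annotated over the same exons, had a summed count of 0 over all 24 libraries, so depletion and rescue could not be read from these counts and the genotypes are as labelled. The study calls the libraries of a genotype biological replicates, but the labels do not say what the replicate numbers stand for. Totals ran from 9.99 to 26.6 M counts per library (median 19.6 M).

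The fly egg is filled by the mother with RNA that drives the first nuclear divisions. At the maternal-to-zygotic transition much of this RNA is degraded while the embryo's own genome is switched on, first at a small group of early zygotic genes, many of them short and without introns, and then at the wider set of patterning and tissue genes. Levels of maternal and of early zygotic RNA both change quickly at this stage. In RNA from whole embryos, fewer cells of a type and less RNA per cell cannot be told apart.

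The ranking values fell steeply over the first 12 genes, from 3.44 for CG18269 to 1.76 for CG13711, and then slowly, from 1.42 for CG32473 at rank 13. At the threshold the last genes taken in were CG34216 (0.874), CG8173 (0.873) and CG1971 (0.873), and the first left out were CG6420 (0.871), CG3631 (0.863) and CG7772 (0.862). There was thus no gap at the 100th gene, and membership near it depended on small differences between control libraries.

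The first 12 genes differed in structure from the rest, which the ranking did not use. All 12 had a single exon, with a median of 754 exon bases, and 6 of them lay inside an intron of another gene. Among the 88 genes at ranks 13 to 100, 11 (12.5%) had a single exon, close to the 12.3% among the 1935 other CG genes at 5 CPM or more. Over the whole group 23 genes (23.0%) had 1 exon and 77 had several, and 13 (13%) were nested in an intron against 4.91% of the other CG genes. The median of all exon bases of a gene was 1732.5, against 1829 in the other CG genes. Exon bases shared with another gene, on which reads may be left unassigned, were found in 32 genes (32.0% against 42.7%), and in none was the larger part of the exon bases shared.

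The group was spread over the chromosome arms unevenly, with 26 genes on X, 17 on 2L, 15 on 2R, 27 on 3L and 15 on 3R. The X held 26% of the group against 17.5% of the other CG genes, and 3R 15% against 25.5%. Of the first 12 genes, 8 were on 3L and 3 on 2L. A run of 4 genes with 1 exon, CG34266 (FBgn0085295), CG15876 (FBgn0035569), CG13713 (FBgn0042199) and CG13712 (FBgn0035570), lay within 32059 bp of 3L, from 4677832 to 4709890 in dm6 coordinates, in a stretch that holds 9 annotated genes. CG13716 (FBgn0035563, 3L from 4634436 to 4634789, minus strand) and CG13711 (FBgn0035572, 3L from 4757883 to 4758708, plus strand) flanked this stretch. On 2L, CG14014 (FBgn0031718) and CG18269 (FBgn0031719) were neighbours on opposite strands within 3048 bp, from 5549709 to 5552756. In all, 20 of the 100 genes lay within 20 kb of another of them.

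Summed over the 100 genes, control replicates 1 to 4 stood at 10338, 11287, 5094 and 4561 CPM. The same split was present in the libraries that did not take part in the choice. These libraries carry the same replicate numbers as the control libraries, and the sides differed over many genes outside the group as well. The split in them is thus no independent support for the choice of genes. Replicates 1 to 4 stood at 11224, 12027, 7234 and 6903 CPM in HDAC3 shRNA, at 10557, 11985, 5272 and 5230 CPM in rescue WT and at 9907, 10646, 4651 and 4573 CPM in rescue Y303F. In rescue K26A they stood at 11793, 11781, 5296 and 5847 CPM, and in rescue HEBI at 10046, 10326, 4810 and 4580 CPM. Every one of the 10 libraries of replicates 1 and 2 outside control was above every one of the 10 of replicates 3 and 4. The ratio of the sides was 1.64 in HDAC3 shRNA and between 2.12 and 2.23 in the rescues, with 2.24 in control. The HDAC3 shRNA libraries of replicates 3 and 4 were the highest on their side, as the plot of summed levels shows.

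**Figure D1:**
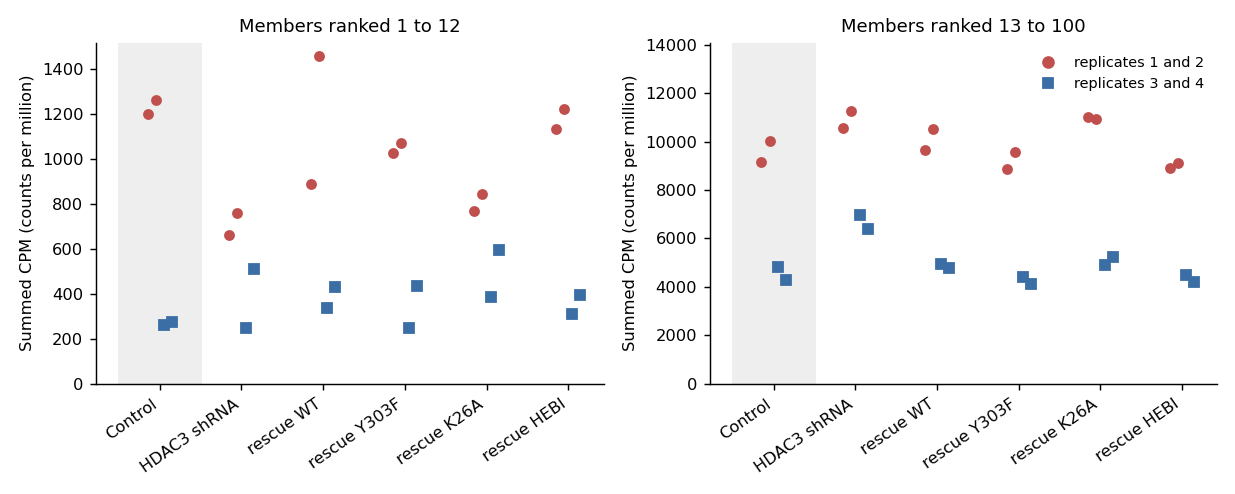
Summed CPM (counts per M of the library total, y axes from 0) of the genes ranked 1 to 12 (left) and 13 to 100 (right) in each library, by genotype. Red circles are replicates 1 and 2, blue squares replicates 3 and 4, and the grey band marks the control libraries that chose the genes. For ranks 13 to 100 the red circles lie between 8882 and 11269 CPM outside control and the blue squares between 4139 and 6988 CPM.

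The first 12 genes did not keep the ratio that they had in control. Their summed level was 1197, 1262, 262 and 273 CPM in control replicates 1 to 4, a ratio of 4.60, which the choice of genes had favoured. In rescue HEBI the 4 libraries held 1132, 1220, 309 and 395 CPM, in rescue Y303F 1025, 1069, 247 and 434 CPM and in rescue WT 886, 1455, 338 and 428 CPM. These ratios were 3.34, 3.08 and 3.06. HDAC3 shRNA, at 663, 758, 246 and 512 CPM, had a ratio of 1.88, and rescue K26A, at 766, 843, 387 and 596 CPM, one of 1.64. No library of replicates 3 and 4 reached the lowest of replicates 1 and 2 in any genotype, but the sides were closest in these 2 genotypes. The 88 genes at ranks 13 to 100 did not share this order, since their ratio was 2.16 in rescue K26A and 1.63 in HDAC3 shRNA.

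Outside control, the difference between replicates 1 and 2 and replicates 3 and 4 was tested with edgeR's quasi-likelihood model over all 9791 genes that passed the filter on low counts, all 100 members among them. Calls needed a log2 fold change of 1 or more in size together with an adjusted p (Benjamini-Hochberg over all these genes) of no more than 0.05. Replicates 1 and 2 on one hand and replicates 3 and 4 on the other are called the sides. Libraries that share a replicate number deviated together, so the comparison of sides rests on 2 replicate numbers against 2. Its p-values treat the libraries as separate and do not measure the spread between replicate numbers. Of the 100 genes, 84 were called higher in replicates 1 and 2, against a background of 6.50% of all genes tested, and 0 were called lower, against 23.1% of all genes. By adjusted p alone 98 were higher (background 32.1%), and 98 had an unadjusted p under 0.05. The median log2 fold change was 1.18 (range -0.02 to 3.23), while that of all genes was -0.13 and that of the other CG genes 0.05. Of 1924 other CG genes tested, 86 were called higher and 307 lower. Scaled by library totals alone, which shifted the median of all genes to -0.27, 60 members were called higher (4.37% of all genes) and 0 lower (27%).

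The gene at rank 3, CG13716, had the largest difference outside control. It stood at 8.49, 11.7 and 29.6 CPM (lowest, median and highest) in the 10 libraries of replicates 1 and 2 and at 0.504, 1.44 and 3.5 CPM in those of replicates 3 and 4, a log2 fold change of 3.23 (SE 0.32, edgeR adjusted p = 4.89e-08). It was also the only member with a count of 0 in any library, in control replicate 4, where 3 counts would stand for 0.183 CPM. CG18269 (2L from 5551838 to 5552756, plus strand), first in the ranking, stood at 20.02, 26.3 and 45.0 CPM against 2.25, 3.84 and 5.64 CPM (2.90, SE 0.18, adjusted p = 2.08e-10). CG13712 (3L from 4709209 to 4709890, minus strand) stood at 37.4, 51.1 and 68.9 CPM against 5.16, 9.28 and 18.9 CPM (2.45, SE 0.23, adjusted p = 3.50e-08). For these 3 genes the sides did not overlap.

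Among the other first-ranked genes, CG15382 (FBgn0031393, 2L from 2155753 to 2156790, plus strand) stood at 84.3, 139 and 185 CPM against 25.1, 41.5 and 67.5 CPM (1.77, SE 0.17, adjusted p = 4.48e-08), with 29.6% of its exon bases shared with another gene. CG13000 (FBgn0030807, X from 16947964 to 16948471, minus strand) stood at 42.5, 54.7 and 98.2 CPM against 9.41, 16.7 and 31.7 CPM (1.84, SE 0.22, adjusted p = 5.16e-07). CG13713 (3L from 4697601 to 4698058, plus strand) stood at 48.7, 60.1 and 81.3 CPM against 13.2, 23.4 and 38.5 CPM (1.46, SE 0.20, adjusted p = 3.81e-06). The sides of these 3 genes did not overlap either. CG14014, at 145, 219 and 299.99 CPM against 41.4, 81.6 and 152 CPM (1.49, SE 0.19), and CG15876, at 82.7, 116 and 158 CPM against 35.5, 58.7 and 91.3 CPM (1.13, SE 0.19), were called although single libraries crossed. The adjusted p was 1.10e-06 for CG14014 and 2.81e-05 for CG15876.

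CG43184 (FBgn0262813, 3L from 13837756 to 13838080, plus strand, 325 exon bases) was the least even of the first 10. Its replicates 1 and 2 ran from 18.9 to 153 CPM with a median of 40.5 CPM, and its replicates 3 and 4 from 10.1 to 57.6 CPM with a median of 24.7 CPM, so that the sides overlapped widely (1.17, SE 0.39, adjusted p = 0.0126). CG7271 (FBgn0036791, 3L from 18588759 to 18590165, plus strand), at 74.5, 109 and 165 CPM against 29.0, 63.2 and 107 CPM, had a log2 fold change of 0.98 (SE 0.17, adjusted p = 5.31e-05) and stayed under the fold threshold. CG6885 and CG13711, at ranks 11 and 12, were added after their values had been seen. CG6885 stood at 0.93 (SE 0.18) and was not called, and CG13711 at 1.79 (SE 0.22, adjusted p = 7.04e-07) was called.

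The hosts of the genes nested in introns had log2 fold changes outside control on both sides of 0, from -1.28 to 0.45. CG13716 and CG34266 lie in introns of axo, which stood at -0.47 and was not called. CG32512 (1.12) lies in bves and CG3021 (0.95) in su(w[a]), both at 0.44 and not called. CG8915 (1.20) lies in f (forked), an actin-bundling protein gene that was called lower at -1.28. No tested host gene was called higher, and the host of CG1503 was not tested.

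Genes with several exons made up most of the group and had smaller but even differences. Of these 77 genes 65 were called higher (median 1.17), against 19 of the 23 genes with 1 exon (median 1.46). The group's most abundant gene, CG2924 (FBgn0023528, X from 2264657 to 2270761, minus strand), stood at 659, 759 and 819 CPM in replicates 1 and 2 and at 289, 417 and 607 CPM in replicates 3 and 4 (log2 fold change 1.001, SE 0.08, adjusted p = 1.95e-09). CG7530 (FBgn0038256, 3R from 14724760 to 14731509, minus strand) stood at 345, 406 and 461 CPM against 159, 189.6 and 302.9 CPM (1.12, SE 0.07, adjusted p = 3.75e-10). The sides of both genes did not overlap. CG10492 (FBgn0032748, 2L from 19054078 to 19058821, plus strand) stood at 313, 419 and 549.7 CPM against 124, 225 and 352 CPM (1.09, SE 0.13, adjusted p = 6.80e-07), with some overlap.

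The largest differences among genes with several exons were those of CG5707 and CG31688. CG5707 (FBgn0026593, 3L from 2189160 to 2192221, minus strand) was a low gene, at 3.82, 9.23 and 11.3 CPM against 1.20, 1.94 and 4.01 CPM (2.00, SE 0.14, adjusted p = 5.77e-10). CG31688 (FBgn0263355, 2L from 20426199 to 20447905, plus strand) stood at 13.4, 29.1 and 48.4 CPM against 3.42, 7.73 and 17.3 CPM (1.98, SE 0.19, adjusted p = 4.33e-08). In both, the lowest library of replicates 1 and 2 was below the highest of replicates 3 and 4 of another genotype, and within each genotype replicates 1 and 2 were higher.

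Several members belong to enzyme families known from their sequence. CG32473, an aminopeptidase family member at rank 13, stood at 252, 299 and 342 CPM against 86.1, 102 and 137 CPM (1.61, SE 0.06, adjusted p = 2.59e-12). Called higher were also CG7328 (1.67), a PfkB-type sugar kinase, CG5966 (1.59), of the triacylglycerol lipase family, CG33090 (1.39), a beta-glucosidase that acts on glucosylceramide in its mammalian relative, and CG4586 (1.38), of the acyl-CoA oxidase family. CG10863 (1.34), an aldo-keto reductase, CG6357 (1.32), a cathepsin-like cysteine protease, CG5568 (1.14), of the acyl-CoA synthetase family, CG17746 (1.13), a protein phosphatase of the PP2C type, and CG4502 (1.07), a ubiquitin-conjugating enzyme, were called too. CG12171, a short-chain dehydrogenase, at 0.92, and CG11334, a methylthioribose-1-phosphate isomerase of the methionine salvage pathway, at 0.89, stayed under the fold threshold. These genes were picked for a known family and not by their values. Among them the sides of CG6357 and CG5568 overlapped across genotypes.

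Other members encode binding, carrier and regulatory proteins. CG3860 (1.53), of the oxysterol-binding protein family, CG10237 (1.42), of the CRAL-TRIO lipid-binding family, CG40006 (1.38), of the CD36 scavenger receptor family, CG8507 (1.21), the fly relative of the chaperone that escorts lipoprotein receptors, and CG5535 (1.12), a cationic amino acid transporter, were called higher. So were the zinc finger genes CG10631 (1.52) and CG8944 (1.05) and the MADF-domain gene CG4404 (1.46). Of these 8 genes CG10237, CG10631 and CG4404 had sides that overlapped across genotypes.

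The 5 smallest differences outside control ran from -0.02 to 0.89. CG43725 (FBgn0263971, 2L from 11075513 to 11075962, plus strand), at rank 14 in control, stood at 21.9, 46.0 and 71.1 CPM in replicates 1 and 2 and at 28.3, 50.3 and 104.99 CPM in replicates 3 and 4 (-0.02, SE 0.19, adjusted p = 0.922). CG34214 (FBgn0085243) stood at 84.0, 171 and 260.3 CPM against 72.4, 138 and 270.1 CPM (0.29, SE 0.19, adjusted p = 0.164). These 2 genes overlapped throughout and did not pass, although in control they stood at 80.9, 73.5, 30.4 and 26.4 CPM and at 359, 299.6, 115.5 and 148 CPM in replicates 1 to 4. CG1971 (0.61, adjusted p = 5.05e-05), CG8173 (0.79, adjusted p = 1.88e-08) and CG11334 (0.89, adjusted p = 1.44e-08) passed by adjusted p and not by fold.

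Within the single genotypes, 40 of the 100 genes were called higher in replicates 1 and 2 in HDAC3 shRNA (background 4.33%), 84 in rescue WT (background 6.07%), 85 in rescue Y303F (background 6.77%), 75 in rescue K26A (background 10.5%) and 93 in rescue HEBI (background 6.30%). The 2 libraries of replicates 1 and 2 were both above the 2 of replicates 3 and 4 for 92 genes in HDAC3 shRNA (25.2% of all genes tested), 97 in rescue WT (25.2%), 97 in rescue Y303F (24.7%), 94 in rescue K26A (30.9%) and 100 in rescue HEBI (24.5%). For 90 genes this held in all 5 genotypes, against 17.2% of the other CG genes. The median log2 ratio of CPM was 0.75 in HDAC3 shRNA, 1.11 in rescue WT, 1.11 in rescue Y303F, 1.15 in rescue K26A and 1.07 in rescue HEBI, where the other CG genes had medians from -0.15 to 0.02.

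**Figure D2:**
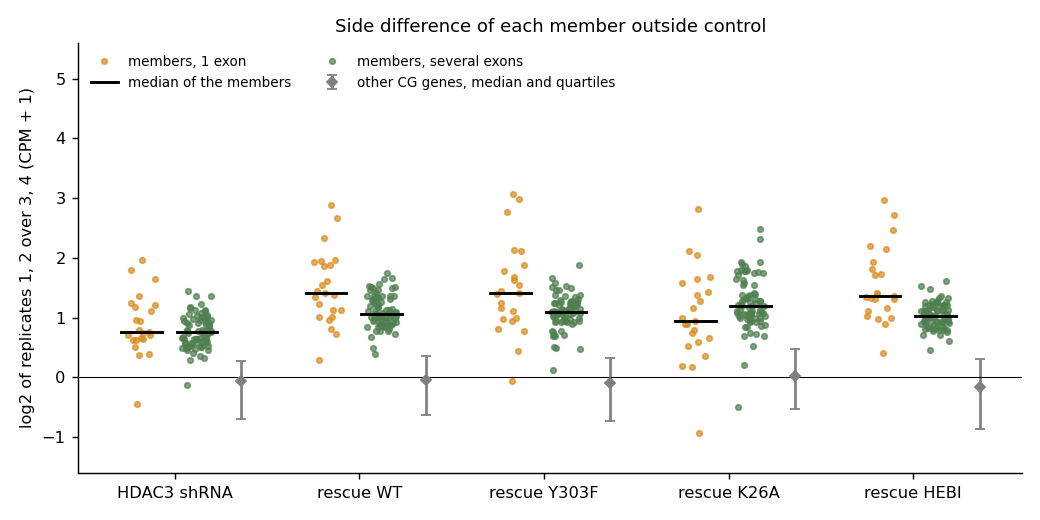
Log2 ratio of mean CPM + 1 in replicates 1 and 2 to that in replicates 3 and 4 (y axis) for each of the 100 genes in the 5 genotypes outside control (x axis). Orange points are genes with 1 exon, green points genes with several exons, black bars their medians, and grey diamonds with bars the median and quartiles of the other CG genes. Genes with 1 exon have medians of 0.75, 1.41, 1.41, 0.94 and 1.37 from left to right and genes with several exons 0.75, 1.06, 1.10, 1.19 and 1.03.

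Marker genes of embryo stages and tissues moved between the same sides, in the same 20 libraries and the same fit. Of 10 maternal RNAs tested, 7 were called higher in replicates 1 and 2 and 0 lower (median 1.12), among them bcd, the anterior determinant, at 1.31. The maternal gene cort went the other way, at -0.81 (adjusted p = 9.87e-05), under the fold threshold. Of 13 early blastoderm genes 3 were called higher and 3 lower (median 0.63). The cellularisation genes nullo (3.02) and bnk (1.37) and the BMP ligand gene scw (2.62) were higher, and the pair-rule genes ftz, eve and run were lower, while Sry-alpha was not tested. Of 10 patterning genes of the stage, 4 of which (zen, run, ftz and eve) are also on the blastoderm list, 7 were called lower and 0 higher (median -1.23). On this list hb (0.40, adjusted p = 0.00188) and zen (0.69, adjusted p = 2.89e-04) went the other way, under the fold threshold. Of the later markers, 4 of 4 gut proteases (median -2.77) and 4 of 4 neuronal genes (median -1.40) were called lower. So were 4 of 7 muscle genes (median -1.11) and 3 of 4 hemocyte genes (median -1.40). Of 9 epidermis and cuticle genes 1 was called lower (median -1.01), and 0 of these later markers were called higher. The ovary and eggshell genes are not markers of a later stage. Of the 4 tested, 3 were called lower and 0 higher (median -1.31), while Yp1, Vm26Aa and Fcp3C were not tested. The muscle list was mixed too, since Tm1 stood at 0.40 (adjusted p = 3.55e-07), under the fold threshold.

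The summed levels of these lists were also taken over all 24 libraries. Early blastoderm genes summed to 1710 to 4659 CPM in replicates 1 and 2 and to 1373 to 3462 CPM in replicates 3 and 4, and patterning genes of the stage to 467 to 1289 CPM against 991 to 1768 CPM, so that both lists overlapped. Maternal RNAs summed to 1956 to 3635 CPM in replicates 1 and 2 and to 854 to 2697 CPM in replicates 3 and 4. Gut proteases summed to 0 to 3.11 CPM against 0.113 to 246 CPM, cuticle genes to 1.11 to 116 CPM against 7.34 to 639.8 CPM, hemocyte genes to 53.8 to 174 CPM against 193 to 456 CPM, and neuronal genes to 11.4 to 51.5 CPM against 41.9 to 122 CPM. Muscle genes stood at 739 to 1085 CPM against 679 to 2023 CPM. Eggshell genes stood at 1.15 to 22.6 CPM against 3.35 to 12.8 CPM. Over the 24 libraries the sides overlapped in all of these lists except that of the hemocyte genes. The highest sums of gut, cuticle and muscle genes were those of control replicates 3 and 4. Outside control the highest were 12.9, 232 and 1218 CPM in that order, all in rescue HEBI replicates 3 and 4. In rescue WT gut proteases stood at 0.146 to 0.173 CPM in replicates 1 and 2 against 0.128 to 0.239 CPM, with no split. Rescue K26A had no split either, at 0.236 to 1.65 CPM against 0.287 to 2.14 CPM. In HDAC3 shRNA they stood at 0 to 0.101 CPM against 0.113 to 0.774 CPM, only a few counts. The sides were further apart in rescue Y303F (0.0404 to 1.20 against 3.44 to 9.35 CPM) and rescue HEBI (0.129 to 0.946 against 12.1 to 12.9 CPM). The part of embryo age, of these tissues or of handling in the members' difference was not tested.

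Replicates within a side differed less. Between replicates 1 and 2 outside control, 0 members were called (background 2.22% of genes in either direction), 7 were higher (background 11.9%) and 7 lower (background 7.79%) by adjusted p alone and 32 had an unadjusted p under 0.05. DESeq2 called 1 member here, CG43184 (-1.27, adjusted p = 0.0382), for which edgeR gave -1.29 (adjusted p = 0.0546). Scaled by library totals, edgeR called the same gene (-1.36, adjusted p = 0.0429). In replicates 1 and 2 it stood in HDAC3 shRNA at 18.9 and 98.2 CPM, in rescue WT at 22.7 and 153 CPM and in rescue K26A at 23.9 and 65.0 CPM, replicate 2 being the higher each time.

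Between replicates 3 and 4, 0 members were called (background 1.15%), 40 had an unadjusted p under 0.05, and DESeq2 called 1, CG13716 (-1.02, adjusted p = 0.0251). By adjusted p alone 10 members were higher in replicate 3 (background 14.1%) and 14 lower (background 10.7%), and the direction went with gene structure. All 10 higher genes had several exons. Of the 23 genes with 1 exon, 10 were lower in replicate 3 and 0 higher, with a median of -0.57, against 10 higher and 4 lower of 77 with several exons (median -0.01). Among the other CG genes the medians were -0.17 with 1 exon (234 genes) and -0.07 with several (1690 genes). CG13713, for example, stood at 17.0 and 38.5 CPM in the HDAC3 shRNA libraries, 19.7 and 29.1 CPM in rescue WT, 13.2 and 26.6 CPM in rescue Y303F, 21.4 and 38.0 CPM in rescue K26A and 17.3 and 25.3 CPM in rescue HEBI (-0.87, SE 0.20, adjusted p = 0.00443). In all 5 genotypes replicate 4 was the higher. The split by exon number was made after the levels had been seen.

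Over the whole group the sides lay closer together in HDAC3 shRNA than in the rescues, but no single gene carried a call. The interaction contrast of the side difference in HDAC3 shRNA less that in the mean of the 4 rescues called 0 members (background 0%) in edgeR and 0 in DESeq2, and 26 members had an unadjusted p under 0.05. The members' median was -0.35, with 3 positive values, while that of all genes was -0.07. None of the 23 genes with 1 exon was positive (median -0.45). CG13716 had -1.23 (SE 0.67, adjusted p = 0.561) and CG18269 -0.71 (SE 0.36, adjusted p = 0.526).

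Rescue K26A was compared with the other 3 rescues in the same way, a comparison added after the levels had been seen. Of the members 2 were called with a larger side difference in rescue K26A (background 3.49%) and 0 with a smaller one (background 0.970%). CG7208 (FBgn0038575, 3R from 18183656 to 18185715, minus strand) stood in replicates 1 to 4 at 51.4, 62.3, 10.8 and 10.6 CPM in rescue K26A, at 29.9, 46.7, 9.91 and 15.5 CPM in rescue WT, at 24.6, 33.9, 15.2 and 13 CPM in rescue Y303F and at 22.1, 27.7, 14.0 and 12.3 CPM in rescue HEBI (1.12, SE 0.28, adjusted p = 0.0249). CG9917 (FBgn0030740, X from 16321431 to 16323231, minus strand) stood at 83.8, 93.4, 11.6 and 11.7 CPM in rescue K26A, at 53.5, 70.3, 13.8 and 18.9 CPM in rescue WT, at 37.0, 47.7, 17.1 and 12.9 CPM in rescue Y303F and at 34.2, 37.3, 18.3 and 12.6 CPM in rescue HEBI (1.28, SE 0.27, adjusted p = 0.0137). Both were highest in rescue K26A in replicates 1 and 2 and low in its replicates 3 and 4. Without rescue K26A replicate 1 neither gene was called.

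CG9917 has 1 exon and CG7208 several. Most of the other genes with 1 exon had a smaller side difference in rescue K26A. The median of the 23 genes with 1 exon in this contrast was -0.96, with 3 positive, CG9917 among them, against 0.01 for the 77 genes with several exons, and the other CG genes had medians of -0.09 and -0.05. No gene with 1 exon was called lower by edgeR (CG15382, for example, stood at -1.16, SE 0.35, adjusted p = 0.0583). DESeq2 called CG15382 lower (-1.15, adjusted p = 0.0135), with CG43725 (-1.27), CG34214 (-1.10) and CG6885 (-1.07). Of the 23 members with 1 exon, 22 stayed higher in replicates 1 and 2 of rescue K26A (median log2 ratio of CPM 0.94). The summed early blastoderm list did not stay higher there, at 2305 to 2552 CPM in replicates 1 and 2 and 2482 to 3462 CPM in replicates 3 and 4. In rescue WT it stood at 3180 to 3306 against 2177 to 2313 CPM, in rescue Y303F at 2675 to 3674 against 1935 to 2253 CPM and in rescue HEBI at 3548 to 4141 against 2149 to 2351 CPM. Maternal RNAs kept their direction in rescue K26A, at 3147 to 3635 against 1194 to 1602 CPM. Whether these lists and the members share a source was not tested.

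**Figure D3:**
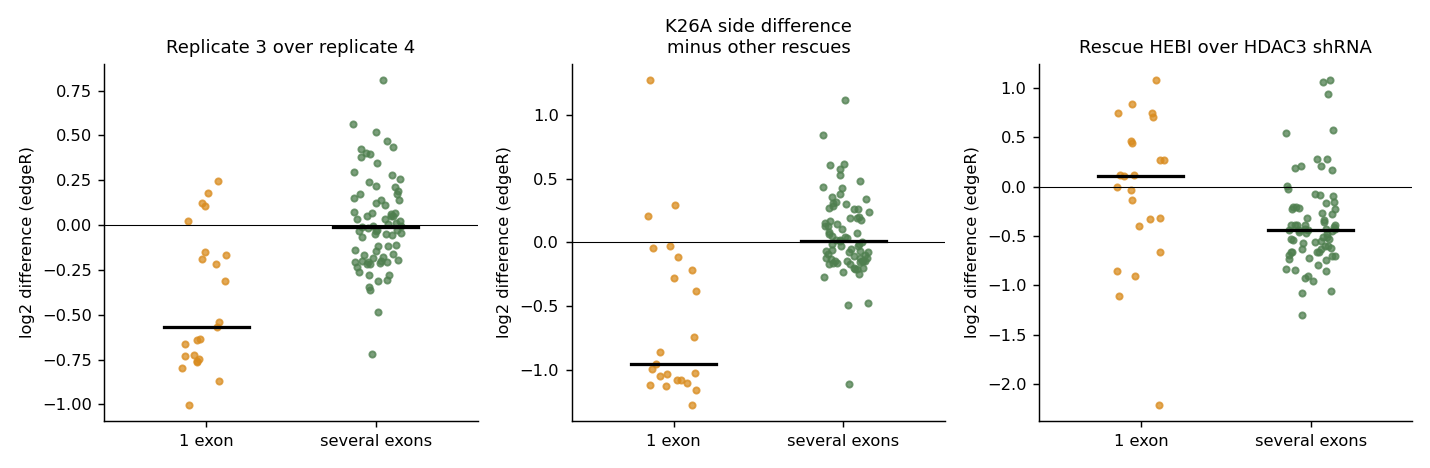
Log2 differences from edgeR (y axes) for the 23 members with 1 exon (orange) and the 77 with several (green), each point a gene and each black bar a median. Left, replicate 3 over replicate 4 outside control (medians -0.57 and -0.01). Middle, side difference in rescue K26A less that of the other rescues (medians -0.96 and 0.01). Right, rescue HEBI over HDAC3 shRNA without a block (medians 0.11 and -0.44).

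The genotypes were then compared over all 4 replicates, each rescue with HDAC3 shRNA and each mutant rescue with rescue WT. The first 4 comparisons share the HDAC3 shRNA libraries, and the other 3 share the rescue WT libraries. With a mean per genotype and no other term, edgeR called 0 members in any of the 7 comparisons. The background was 0.797% for rescue WT, 0.674% for rescue Y303F, 0.194% for rescue K26A and 1.50% for rescue HEBI against HDAC3 shRNA, and 0.0204% for Y303F, 0.0919% for K26A and 0.0409% for HEBI against rescue WT. An unadjusted p under 0.05 was reached by 3, 5, 3 and 8 members against HDAC3 shRNA in that order and by 0, 0 and 0 against rescue WT. In this fit the side difference counts as spread between replicates.

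With the replicate number as a block, members were called against HDAC3 shRNA. Rescue WT had 1 higher (background 8.14%) and 2 lower (background 0.807%), and rescue Y303F 0 higher (background 6.58%) and 5 lower (background 1.59%). Rescue K26A had 1 higher (background 1.06%) and 0 lower (background 0.460%), and rescue HEBI 2 higher (background 9.31%) and 7 lower (background 2.48%). In either direction together the background was 8.95%, 8.17%, 1.52% and 11.8% in this order. Against rescue WT, 1 member was lower in rescue Y303F (background in either direction 0.378%). In rescue K26A (background 1.52%) and rescue HEBI (background 0.582%) 0 were called. Against HDAC3 shRNA, higher calls lay under their background in rescue WT, Y303F and HEBI. Lower calls lay above theirs in the same rescues, by a few genes. By adjusted p alone the blocked fit had 59 members lower in rescue WT (background 15.1%), 63 in rescue Y303F (background 18.3%), 16 in rescue K26A (background 4.17%) and 63 in rescue HEBI (background 20.4%) than in HDAC3 shRNA. Higher were 5 (background 17.2%), 5 (background 18.2%), 4 (background 4.18%) and 9 (background 22.1%) in the same order. The members' medians were -0.38, -0.44, -0.18 and -0.47, where all genes had -0.01, 0.06, 0.04 and 0.07. This difference lay in the genes with several exons (medians -0.42, -0.51, -0.20 and -0.50) more than in those with 1 exon (0.01, -0.16, -0.07 and -0.20).

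CG34216 (FBgn0085245), a gene with 1 exon at rank 98, had the largest genotype differences. It stood in replicates 1 to 4 at 23.3, 36.3, 17.9 and 19.0 CPM in HDAC3 shRNA, at 10.7, 18.5, 6.60 and 5.67 CPM in rescue WT, at 8.80, 10.4, 3.98 and 3.03 CPM in rescue Y303F, at 26.3, 36, 8.39 and 9.63 CPM in rescue K26A and at 7.37, 8.78, 2.52 and 2.41 CPM in rescue HEBI. In control it stood at 7.78, 8.62, 3.64 and 4.40 CPM. All 4 HDAC3 shRNA libraries were above all 4 of rescue Y303F and of rescue HEBI, and the rescue K26A libraries of replicates 1 and 2 were as high as those of HDAC3 shRNA. With the block the log2 fold change against HDAC3 shRNA was -1.47 in rescue WT (SE 0.20, adjusted p = 1.64e-04), -2.09 in rescue Y303F (SE 0.20, adjusted p = 6.23e-06) and -2.42 in rescue HEBI (SE 0.21, adjusted p = 6.21e-07).

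CG10237, the CRAL-TRIO family gene (FBgn0032783, 2L from 19435850 to 19442727, minus strand), separated the rescues into a high and a low pair. It stood in HDAC3 shRNA at 152, 165, 77.5 and 67.6 CPM, at 129, 150.0, 48.0 and 59.2 CPM in rescue WT and at 169.6, 191, 48.8 and 54.6 CPM in rescue K26A. In rescue Y303F it stood at 49.8, 75, 31.1 and 24.6 CPM and in rescue HEBI at 59.5, 69.2, 35.1 and 30.7 CPM, about as low in replicates 1 and 2 as the other genotypes were in replicates 3 and 4. With the block it was lower than in HDAC3 shRNA in rescue Y303F (-1.44, SE 0.13, adjusted p = 4.19e-06) and rescue HEBI (-1.27, SE 0.13, adjusted p = 3.64e-06), and lower in rescue Y303F than in rescue WT (-1.01, SE 0.13, adjusted p = 0.00115). It was the only member called between rescues.

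CG18586 (FBgn0035642, 3L from 5873311 to 5875466, plus strand) stood at 43.9, 60.3, 33.2 and 31.0 CPM in HDAC3 shRNA, at 25.1, 32.6, 15.8 and 14.6 CPM in rescue WT and at 23.0, 29.1, 15 and 15 CPM in rescue HEBI. With the block it was lower in rescue WT (-1.08, adjusted p = 1.09e-05) and in rescue HEBI (-1.10, adjusted p = 1.88e-06). CG42674 was lower in rescue Y303F (-1.15) and rescue HEBI (-1.05), as was CG44005 (-1.04 and -1.05), CG31688 in rescue Y303F (-1.07), and CG9917 (-1.07) and CG42240 (-1.01) in rescue HEBI. CG5707 was higher than in HDAC3 shRNA, where it stood at 3.82, 4.31, 1.45 and 1.20 CPM, in rescue WT (1.11, adjusted p = 0.00127), rescue K26A (1.10, adjusted p = 0.00471) and rescue HEBI (1.08, adjusted p = 7.10e-04). CG34214 was higher in rescue HEBI (1.04, adjusted p = 0.00222). The plot of 6 named genes shows these levels by library.

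**Figure D4:**
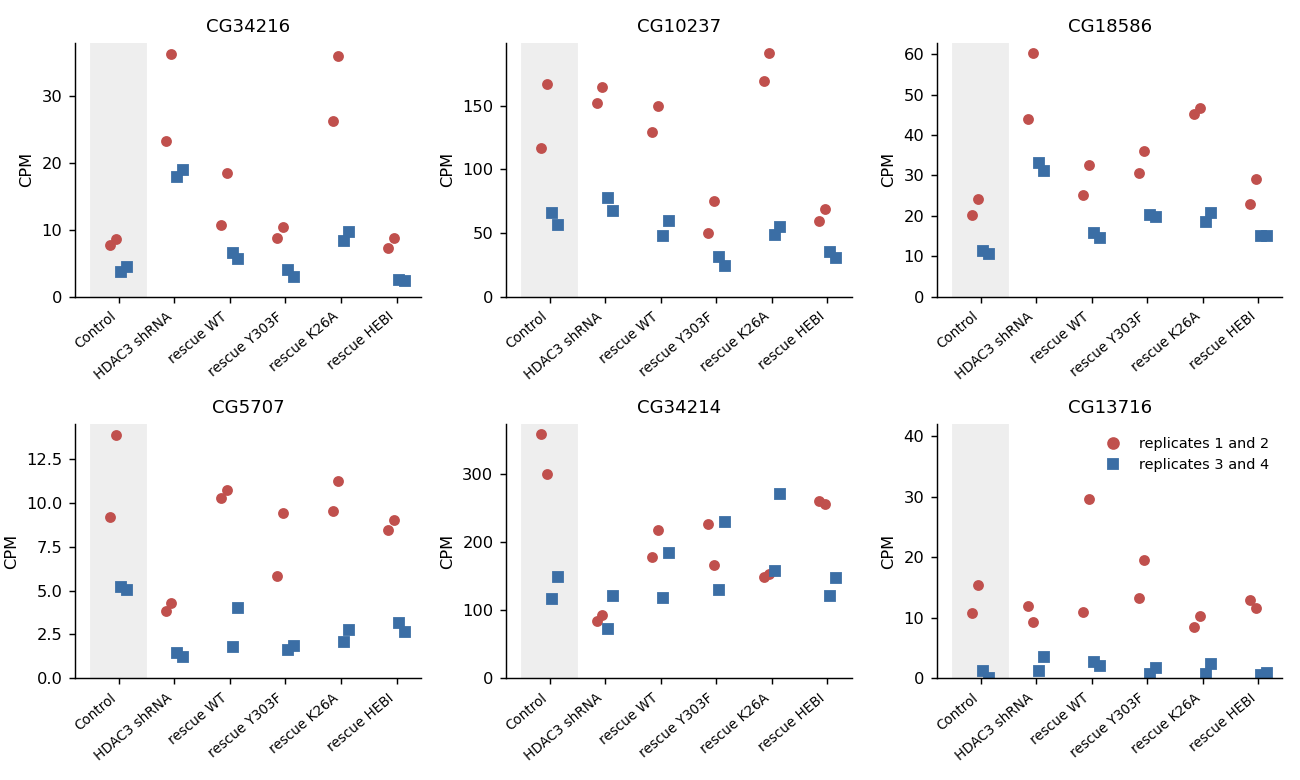
CPM of 6 members (y axes from 0) in each library by genotype (x axis), red circles for replicates 1 and 2 and blue squares for replicates 3 and 4, with the control libraries that chose the genes on grey. CG34216, CG10237 and CG18586 are low in rescue HEBI, and CG5707 is lowest in HDAC3 shRNA. CG34214 reaches 270.1 CPM in rescue K26A replicate 4 alone, while replicate 3 is level with replicates 1 and 2 of that genotype. Its side difference there was not called (edgeR log2 fold change -0.47, SE 0.34). CG13716 is under 4 CPM in every library of replicates 3 and 4.

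Against control the values are a description, since control chose the genes. In HDAC3 shRNA the median log2 ratio to control was 0.16 within replicates 1 and 2 and 0.48 within replicates 3 and 4, where 82 of the 100 genes were above control. The other genotypes had medians of 0.08 and 0.08 in rescue WT, -0.04 and -0.09 in rescue Y303F, 0.14 and 0.10 in rescue K26A and -0.11 and -0.05 in rescue HEBI. The other CG genes in HDAC3 shRNA had medians of -0.10 and -0.18. The extremes in HDAC3 shRNA were CG34214, at -1.89 in replicates 1 and 2, and CG34216, at 1.74 and 1.95 on the 2 sides.

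Among genes with names, the 8 whose level over the 20 libraries outside control followed the mean of the members most closely were S2P, krz, Dolk, Pngl, ZnT49B, Uxs, sra and ifc (Pearson r of log2 CPM + 1 from 0.986 to 0.993, of 4770 candidates). S2P, the protease that releases the membrane-bound lipid regulator SREBP, ran from 74.3 to 89.9 CPM in replicates 1 and 2 and from 37.1 to 52.8 CPM in replicates 3 and 4. The non-visual arrestin gene krz ran from 199 to 240.1 CPM against 101.1 to 152 CPM, and Dolk, the dolichol kinase gene, from 67.5 to 84.7 CPM against 25.2 to 38.6 CPM. The calcineurin regulator gene sra ran from 86.0 to 118 CPM against 40.3 to 73.6 CPM. The libraries share the split by side, so a high r shows only that these genes have the same split.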

How the data were processed

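RNA-seq of whole embryos was used (n = 4 per genotype). Per the labels, total RNA from TRIzol LS homogenates went into the TruSeq Stranded Total RNA kit. The submitters' processing notes name STAR, featureCounts, DESeq2 and dm6. Their versions are not stated, and the strand setting is not given in the sources used here. Deposited values are raw read counts per FlyBase gene made by the authors. Of 17559 identifiers, 17253 matched a symbol in Ensembl release 115 (BDGP6.54), 306 did not (5.23% to 6.20% of counts) and were kept. All columns belonged to a sample. The lowest chi-square per gene over 36 pairs of replicates was 26.3, so no library was a copy.

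Counts of the 20 libraries outside control were fitted with edgeR 4.0.16 in R 4.3.3 (TMM factors 0.879 to 1.13, filterByExpr by genotype, quasi-likelihood test), with adjustment over all 9791 genes tested. CPM values printed per library are per M of the column total. DESeq2 1.42.0, DESeq2 size factors, library totals, no filter, each library left out in turn, each side alone and the replicate block were alternatives. The procedure was tested on simulated data. Their libraries were drawn separately, with no deviation shared by a replicate number, so this test does not cover the effect of such deviation on the p-values. Without the strand setting it is not known whether sense and antisense reads over shared exons were told apart.

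Libraries that share a replicate number deviated together from their genotype means (40 pairs, r from 0.283 to 0.805, median 0.642, against medians of 0.419 for other numbers of the same side and -0.53 across sides). By this check the numbers pair the samples, and each member result that the block changes is given with it. The p-values for differences between sides, or between replicate numbers, treat the libraries as separate. They do not measure the spread between replicate numbers. The pairing comes from the data, since the labels share only the numbers.

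Named were ranks 1 to 10, the 5 largest and 5 smallest side differences, the 3 highest levels, ranks 98 to 103, up to 3 called genes per genotype comparison and the 8 likest named genes. Others were chosen after their values were seen. The members, marker lists and tests were chosen with earlier results of these data known. Of the marker lists, nos and PPO1 found no match in the names used. Some host genes of nested members are not reported here.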

Additional observations from a re-analysis of the deposited data

Results flagged for a closer look

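In 4 of 186 groups of 4 libraries, a single value stood apart from the others by Dixon's criterion at the 95% level, which chance alone reaches in about 1 of 20 groups. CG43184 stood at 153 CPM in rescue WT replicate 2, against 13.2 to 30.6 CPM in the other 3 libraries. CG34214 stood at 270.1 CPM in rescue K26A replicate 4, against 148 to 156 CPM. CG15876 stood at 57.3 CPM in rescue K26A replicate 3, against 91.3 to 98 CPM, and CG1971 at 8.22 CPM in the same library, against 11.2 to 11.6 CPM.

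The difference between replicates 1 and 2 and replicates 3 and 4 was larger in rescue K26A than in the mean of the other rescues for CG9917 (log2 difference 1.28, edgeR adjusted p = 0.0137) and CG7208 (1.12, adjusted p = 0.0249), by the interaction contrast itself. These 2 of 100 members lie under the background of 3.49% of all genes tested. The contrast was added after the levels had been seen, and neither gene was called without rescue K26A replicate 1.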

How the results depend on the processing

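The count of members called higher in replicates 1 and 2 outside control was 84, and it was 90 with DESeq2 size factors, 89 without a filter, 60 with library totals, 90 with DESeq2, 82 with the replicate block and 77 to 92 with 1 library left out. Within genotypes the counts with 1 library left out ran from 35 to 46 in HDAC3 shRNA, 71 to 91 in rescue WT, 78 to 87 in rescue Y303F, 60 to 82 in rescue K26A and 80 to 96 in rescue HEBI. Between replicates 1 and 2, library totals and DESeq2 each called 1 member in place of 0, and between replicates 3 and 4 DESeq2 called 1. The contrast of rescue K26A with the other rescues called 2 members, 6 with DESeq2, 3 without a filter and 0 (without rescue K26A replicate 1) to 4 (without rescue Y303F replicate 4) with 1 library left out.

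Genotype comparisons called 0 members without a block. With the replicate block, 3 were called in rescue WT, 5 in rescue Y303F, 1 in rescue K26A and 9 in rescue HEBI against HDAC3 shRNA, and 1 in rescue Y303F against rescue WT. In replicates 1 and 2 alone 4, 3 and 11 members were called in rescue WT, Y303F and HEBI against HDAC3 shRNA, where 2.90%, 9.73% and 13.03% of all genes were called. In replicates 3 and 4 alone 3, 11 and 15 were called, all lower, where 0.0594%, 0.891% and 1.74% of all genes were lower. DESeq2 called 2 in rescue HEBI. The block changed no other count of calls between genotypes. Over the values of single named members, 1186 of 1261 alternatives kept direction and side of the threshold, 54 became called, 21 lost the call and 0 reversed. Of the 100 members, 90 to 98 would also be taken with another pseudocount, another minimum level or TMM-scaled CPM, and 77 to 85 with 1 control library left out. Depth limited genes at a few CPM such as CG13716.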
